A study of Homo sapiens with 12 samples.

Results

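E-cadherin and the factors that switch epithelial cells between adherent and mesenchymal states were followed as a set of 10 named genes: CDH1, EPCAM, ZEB1, ZEB2, SNAI1, SNAI2, GRHL2, OVOL1, ESRP1 and ESRP2. They were chosen by name, although with earlier results of these data known, and are 10 of the 59172 features in the deposited table. 9 of the 10 had enough reads to be tested, and ZEB2 did not. RNA came from HCT-116, an established human colorectal carcinoma line, in 12 libraries that form 4 groups of 3. The first group was untreated wild-type cells. The second received CPT-11 for 24 h. CPT-11 is irinotecan, a prodrug whose metabolite SN-38 stalls topoisomerase I on DNA. The third received lovastatin, an inhibitor of HMG-CoA reductase, for 4 h before 24 h of CPT-11. The fourth carried a silenced SHP2, titled shSHP2, and received CPT-11 for 24 h. SHP2 is a tyrosine phosphatase encoded by PTPN11, and silenced cells without CPT-11 and cells with lovastatin alone were not analysed here. The treatment label of the silenced group also names lovastatin, while its titles and the treatment protocol do not, so these libraries were grouped by title. The labels do not state drug doses, a control hairpin, whether silenced cells were 1 clone, or whether replicate libraries are from separate cultures. The p-values therefore measure the spread between these libraries, which may be technical.

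E-cadherin, the product of CDH1, joins neighbouring epithelial cells at adherens junctions, and EPCAM is a homophilic adhesion molecule of most carcinomas. SNAI1, SNAI2, ZEB1 and ZEB2 are zinc-finger repressors that bind E-box sequences, and CDH1 is their best-known target. GRHL2 and OVOL1 maintain epithelial gene expression and oppose ZEB1, while ESRP1 and ESRP2 are RNA-binding proteins that set epithelial splicing. ZEB1 and ZEB2 are in turn targets of the miR-200 family of microRNAs, with which they form a loop of mutual repression.

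The libraries held 14447847 to 16224271 reads assigned to genes. Levels are in FPKM (fragments scaled by gene length and by a factor for each library), so that genes of different length can be compared. The deposited factor did not follow the number of reads assigned to genes alone. PTPN11 stood at 6.01 to 7.15 FPKM in the 3 libraries labelled as silenced and at 43.2 to 55.4 FPKM in the other 9. HMGCS1, a sterol synthesis gene induced by statins, stood at 101 to 105 FPKM in the lovastatin libraries and at 24.9 to 31.2 FPKM elsewhere, including 24.9 to 25.8 FPKM in the silenced libraries. Keratin genes KRT8, KRT18 and KRT19 and EPCAM were abundant. Of the other colon epithelium markers listed, CDX1, VIL1, LGALS4 and CDH17 were low, with 1, 73, 39 and 96 reads over all 12 libraries. KRT20 had 412 reads, CDX2 3501 and CDH1 10716. Of 17 markers of fibroblasts, endothelium and blood cells, 15 were under 1 FPKM in every library. The highest was COL1A1, at up to 5.89 FPKM. The libraries also differed in how gene levels varied with GC content. The slope, in log2 units per 10 points of GC, was 0.12 to 0.16 in silenced cells and 0.02 to 0.09 with lovastatin, and it was -0.17 to -0.01 in untreated cells. Within the CPT-11 group replicates 1 and 2 had slopes of -0.18 and -0.22, and replicate 3 stood apart at 0.10. A joint correction for GC content and gene length was also run, with values given for members of the set. The slopes differ by group, so it cannot separate a technical slope from group differences that follow GC content.

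In untreated cells EPCAM was the most abundant of the 10 at 72.7 FPKM ± 1.96 (SD, n = 3), above 97.5% of the tested genes. ESRP1 followed at 24.9 FPKM ± 0.83 and ESRP2 at 10.9 FPKM ± 1.04. SNAI1 and CDH1 came next, and their libraries overlapped, from 6.83 to 7.37 FPKM for SNAI1 and from 6.53 to 7.18 FPKM for CDH1. GRHL2 at 2.42 FPKM ± 0.09 and ZEB1 at 2.13 FPKM ± 0.19 lay close together. OVOL1 was at 1.26 FPKM ± 0.12, SNAI2 at 0.103 FPKM ± 0.083, and ZEB2 was last at 0.0183 FPKM ± 0.0135. HCT-116 cells thus had a high EPCAM level, an intermediate CDH1 level and measurable transcripts of 2 of its repressors.

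**Figure D1:**
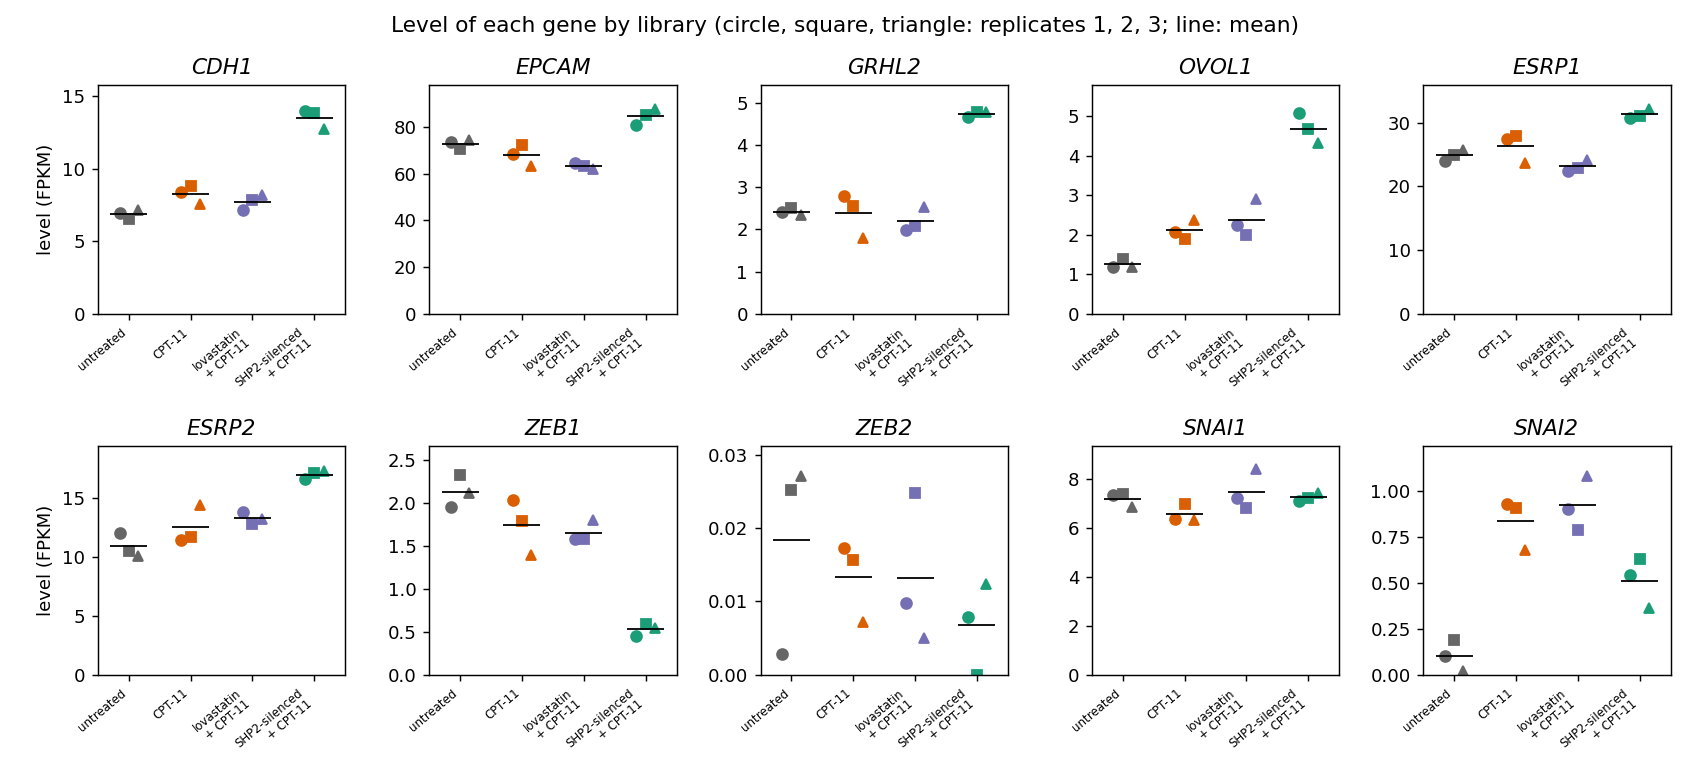
Level in FPKM of each of the 10 genes in the 12 libraries, with 1 panel a gene, each y axis starting at 0 and scaled to its own gene; symbols mark replicates 1 to 3 and the line is the group mean. In SHP2-silenced cells CDH1, EPCAM, GRHL2, OVOL1, ESRP1 and ESRP2 lie above all other libraries and ZEB1 lies below them, whereas SNAI2 is lowest in untreated cells.

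SHP2-silenced cells given CPT-11 had more mRNA of the adhesion genes, of both epithelial transcription factors and of both splicing factors than wild-type cells given CPT-11, and less ZEB1 mRNA. OVOL1 was 2.21-fold, GRHL2 1.98-fold and CDH1 1.64-fold higher, EPCAM, ESRP1 and ESRP2 were 1.19-fold to 1.36-fold higher, and ZEB1 was 3.30-fold lower. Each gene was tested with limma on log2(FPKM + 1), a scale that shrinks the differences of low genes. Adjusted p-values are Benjamini-Hochberg values over all 18047 genes tested. Of the 9 genes tested 6 rose and 2 fell at an adjusted p under 0.05, where 22.0% of all tested genes passed in either direction, 10% higher and 12% lower. The groups did not overlap for any of the 9, and this was so for 35.9% of all tested genes. The all-gene median difference was 0.00 on the log2 scale, with the deposited scaling of the libraries.

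CDH1 (ENSG00000039068) lies on chromosome 16 at 68737225 to 68835548 on the plus strand of GRCh38. Its level was 14.0, 13.9 and 12.8 FPKM in the 3 silenced libraries and 8.42, 8.79 and 7.61 FPKM with CPT-11 alone. It was 7.15, 7.85 and 8.18 FPKM with lovastatin and CPT-11, and 6.99, 6.53 and 7.18 FPKM in untreated cells. Every silenced library stood above all 9 others, whose ranges lay close to each other. The difference from CPT-11 alone was 0.65 ± 0.07 (log2, SE, adjusted p = 3.6e-04). EPCAM (ENSG00000119888, chromosome 2, 47345158 to 47387601) stood at 81.0, 85.3 and 87.8 FPKM in silenced cells, against 68.5, 72.4 and 63.3 FPKM with CPT-11 alone. With lovastatin and CPT-11 it was 64.4, 63.5 and 62.0 FPKM, and in untreated cells 73.5, 70.5 and 74.2 FPKM. The silenced libraries were again above all others, by a smaller factor than for CDH1. The difference from CPT-11 alone was 0.31 ± 0.06 (adjusted p = 5.8e-03). With only the 6 libraries of both groups in the fit, the EPCAM call ended (adjusted p = 0.064) and that of CDH1 held (adjusted p = 0.015).

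GRHL2 (ENSG00000083307, chromosome 8, 101492432 to 101669726) is a grainyhead-like activator of CDH1 and other junction genes. It was at 4.67, 4.78 and 4.78 FPKM in silenced cells, 2.80, 2.57 and 1.80 FPKM with CPT-11 alone, 1.99, 2.07 and 2.54 FPKM with lovastatin, and 2.42, 2.51 and 2.34 FPKM in untreated cells. The 3 silenced libraries nearly coincided, while CPT-11 replicate 3 was the lowest of all 12 libraries. The difference from CPT-11 alone was 0.77 ± 0.11 (adjusted p = 1.8e-03), and it was 0.64 without CPT-11 replicate 3 (adjusted p = 2.7e-04). OVOL1 (ENSG00000172818, chromosome 11, 65787022 to 65797219), a zinc-finger repressor of mesenchymal genes, was at 5.08, 4.68 and 4.32 FPKM in silenced cells. It was at 2.07, 1.90 and 2.39 FPKM with CPT-11 alone, 2.24, 1.99 and 2.92 FPKM with lovastatin, and 1.18, 1.39 and 1.20 FPKM in untreated cells. OVOL1 thus had 3 levels that did not overlap: untreated, CPT-11 with or without lovastatin, and silenced with CPT-11. Its difference between silenced cells and CPT-11 alone was 0.87 ± 0.11 (adjusted p = 8.2e-04).

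ESRP1 (ENSG00000104413, chromosome 8, 94641074 to 94707466) was at 30.7, 31.1 and 32.2 FPKM in silenced cells and at 27.4, 27.9 and 23.7 FPKM with CPT-11 alone. It was at 22.5, 22.8 and 24.2 FPKM with lovastatin and at 24.0, 24.9 and 25.7 FPKM in untreated cells. Its difference from CPT-11 alone, 0.24 ± 0.06 (adjusted p = 0.022), was the smallest of the 6 rises. The call ended under 6 of 21 alternatives, among them leaving out CPT-11 replicate 1 (adjusted p = 0.0501) or any 1 of the silenced libraries (adjusted p of 0.0599 to 0.067) and fitting only the 2 groups (adjusted p = 0.098). ESRP2 (ENSG00000103067, chromosome 16, 68229111 to 68238102, minus strand) was at 16.6, 17.1 and 17.3 FPKM in silenced cells and at 11.4, 11.7 and 14.4 FPKM with CPT-11 alone. It was at 13.8, 12.8 and 13.2 FPKM with lovastatin and at 12.1, 10.5 and 10.1 FPKM in untreated cells. The silenced libraries stood above the rest, with CPT-11 replicate 3 the highest of the others. The difference was 0.42 ± 0.09 (adjusted p = 0.011), and it was not called with only the 2 groups in the fit (adjusted p = 0.062). ESRP2 overlaps NFATC3 on the opposite strand, but only at their ends, from 68229111 to 68229259. NFATC3 held up to 550 reads a library over its whole length. The strand setting of the counting is not given in the sources used here.

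ZEB1 (ENSG00000148516, chromosome 10, 31318495 to 31529814, plus strand) had the lowest levels in silenced cells, at 0.446, 0.589 and 0.543 FPKM. It was at 2.03, 1.78 and 1.40 FPKM with CPT-11 alone, 1.58, 1.58 and 1.80 FPKM with lovastatin, and 1.95, 2.33 and 2.11 FPKM in untreated cells. No other library came near the silenced ones, and the lowest of the others was CPT-11 replicate 3. The difference from CPT-11 alone was -0.84 ± 0.09 (adjusted p = 4.0e-04), and 0.349% of the tested genes fell further. It was -1.54 with a pseudocount of 0.1 FPKM and -1.70 on the recovered reads with voom, since a pseudocount of 1 FPKM shrinks a gene at this level.

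The ZEB1 and ZEB2 transcripts carry more matches to the miR-200 seeds than nearly all other tested genes, and the sequences are given because they set these members apart from the rest. The family has 2 seeds, bases 2 to 8 of the mature microRNA, shown in capitals in these RefSeq sequences.
hsa-miR-200b-3p: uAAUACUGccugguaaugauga
hsa-miR-200c-3p: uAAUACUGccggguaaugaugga
hsa-miR-429: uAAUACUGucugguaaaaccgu
hsa-miR-200a-3p: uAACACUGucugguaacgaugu
hsa-miR-141-3p: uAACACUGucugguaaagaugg
The first 3 share a seed whose match in a transcript reads CAGTATT, and the other 2 share a seed whose match reads CAGTGTT. On GRCh38.p14 the genes of miR-200b, miR-200a and miR-429 lie on chromosome 1 between 1167160 and 1169076, and those of miR-200c and miR-141 on chromosome 12 between 6963742 and 6964176. In the longest 3′ UTR of each gene in GENCODE 29, ZEB1 held 6 matches of the first kind and 3 of the second in 2549 bases. ZEB2 held 5 and 4 in 5370 bases. 4 of these sites are shown with their flanks, 2 from each gene, the seed match in capitals.
ZEB1 site at base 369 of the 3′ UTR: tatcttatCAGTATTatcactct
ZEB1 site at base 1533: tgatttaaCAGTGTTatgttaac
ZEB2 site at base 455: caatgcatCAGTATTatgattcc
ZEB2 site at base 734: tccttgtaCAGTGTTaagagggt
Of 13600 tested genes with a 3′ UTR, 31.7% held at least 1 match and 0.0368% held 9 or more. ESRP1 held 2 matches and SNAI2 and GRHL2 held 1 each, while CDH1, EPCAM, SNAI1, OVOL1 and ESRP2 held none. A match of letters is a description and not a site shown to be used, and mature microRNAs were not analysed here.

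The RefSeq promoter table held windows for ZEB1 and ZEB2 only among the 10 genes. The window of the most upstream ZEB1 start, chr10:31318167-31318416 on the plus strand of GRCh38.p14, lies just upstream of ZEB1 and overlaps exons of ZEB1-AS1, which is read in the opposite direction. The annotated start of ZEB1-AS1 is at 31320447, so the window lies within that gene. The window is shown because both genes are set side by side here, with its E-box CACCTG (here read as CAGGTG) in capitals.
ZEB1 upstream window: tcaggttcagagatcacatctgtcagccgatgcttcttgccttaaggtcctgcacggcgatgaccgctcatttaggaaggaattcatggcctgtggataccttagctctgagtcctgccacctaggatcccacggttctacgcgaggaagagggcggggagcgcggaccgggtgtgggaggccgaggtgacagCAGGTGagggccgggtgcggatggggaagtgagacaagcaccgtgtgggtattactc
CACCTG on either strand was present in 17.5% of the 35116 windows of this table. The grainyhead core motif AACCGG, searched on both strands, was in 5.99% of the windows and not in this one. The shown window is 1 of 7 of ZEB1 in the table. Of the 6 others, the third of the 7 held 2 CACCTG and 5 held none, and none held AACCGG. The 1 window of ZEB2 held neither motif. ZEB1-AS1 was at 0.989, 0.789 and 0.791 FPKM in silenced cells and at 1.21, 1.08 and 0.836 FPKM with CPT-11 alone. The ranges of the antisense transcript overlapped, and its difference was -0.13 ± 0.09 (adjusted p = 0.32), against -0.84 for ZEB1. ZEB1-AS1 was added after its values were seen. Reads of the pair cannot be separated where they overlap, and ZEB1-AS1 held at most 90 reads a library.

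Of the other repressors, SNAI1 (ENSG00000124216, chromosome 20, 49982999 to 49988886) was at 7.09, 7.21 and 7.41 FPKM in silenced cells and at 6.33, 6.98 and 6.31 FPKM with CPT-11 alone. It was at 7.19, 6.78 and 8.39 FPKM with lovastatin and at 7.33, 7.37 and 6.83 FPKM in untreated cells. The whole set of 12 values spanned 6.31 to 8.39 FPKM, a range near the CDH1 level of untreated cells and without the step that CDH1 showed in silenced cells. Its difference between silenced cells and CPT-11 alone was 0.13 ± 0.08 (adjusted p = 0.23), and it turned to -0.11 when GC content and length were corrected for. ZEB2 (ENSG00000169554, chromosome 2, 144364364 to 144524583) had 0 to 10 reads in every library and at most 0.027 FPKM, so no comparison of its groups was made.

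SNAI2 (ENSG00000019549, chromosome 8, 48917604 to 48921740) was a low transcript with a different order of groups. The untreated libraries held 5, 10 and 1 of its reads, those of CPT-11 alone 51, 47 and 38, those of the lovastatin group 50, 43 and 58, and the silenced ones 28, 36 and 20. In FPKM these were 0.102, 0.186 and 0.0200 in untreated cells, 0.928, 0.905 and 0.677 with CPT-11, 0.903, 0.788 and 1.08 with lovastatin, and 0.539, 0.629 and 0.365 in silenced cells. Silenced cells thus lay between untreated cells and the other 2 groups, with no overlap. SNAI2 was lower in silenced cells than with CPT-11 alone by -0.28 ± 0.09 (adjusted p = 0.047), but this call ended under 18 of 20 alternatives, with adjusted p-values of 0.014 to 0.22 over them. Among them were a pseudocount of 0.1 FPKM (adjusted p = 0.14), voom (adjusted p = 0.094) and leaving out any 1 library other than CPT-11 replicate 3 and lovastatin replicate 3 (adjusted p of 0.0501 to 0.156).

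**Figure D2:**
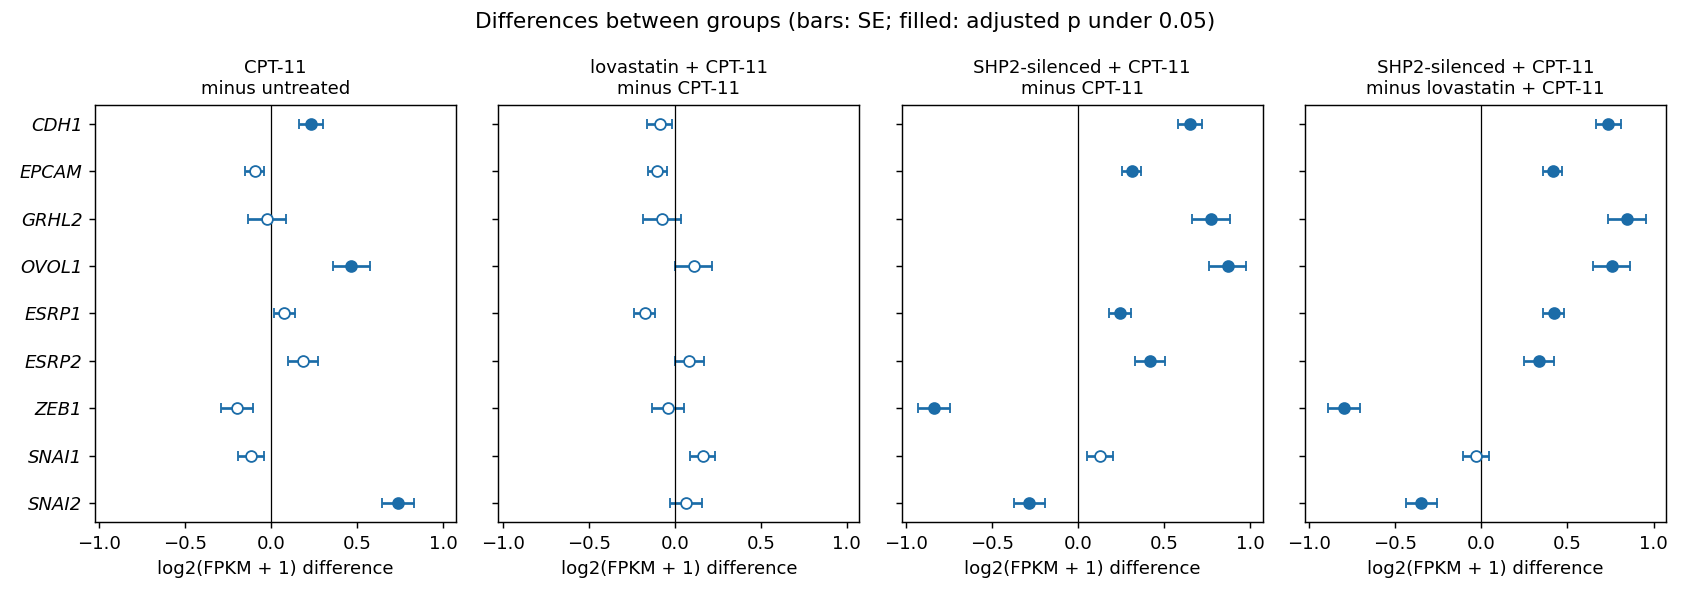
Log2(FPKM + 1) difference of the 9 tested genes in 4 comparisons, 1 panel each, on a common axis, with bars for the SE of limma and filled points for an adjusted p under 0.05. The 2 comparisons of silenced cells have 8 filled points each, CPT-11 against untreated cells has 3, and lovastatin with CPT-11 against CPT-11 has none.

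Correcting each library for GC content and gene length left CDH1 at 0.71, EPCAM at 0.37, GRHL2 at 0.83, OVOL1 at 0.67, ESRP1 at 0.46, ESRP2 at 0.28 and ZEB1 at -0.59 for silenced cells against CPT-11 alone. All 7 stayed called. ESRP1 and ZEB1 are the members with the lowest GC content, 42.6% and 42.4%, and OVOL1 and ESRP2 are among the highest, at 59.1% and 58.1%. The 2 low-GC members moved upward and the 2 high-GC members downward under the correction. SNAI2 moved to -0.18 and was no longer called (adjusted p = 0.18). Without CPT-11 replicate 3 all 8 calls held, with CDH1 at 0.60 and ZEB1 at -0.93.

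**Figure D3:**
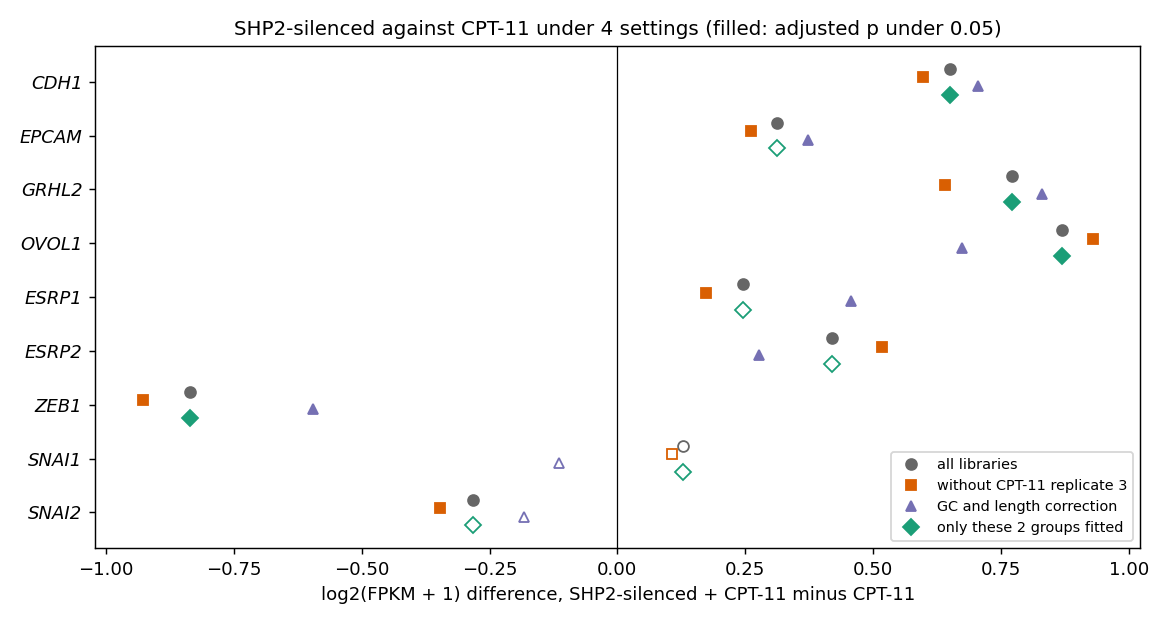
Log2(FPKM + 1) difference of the 9 genes between silenced cells with CPT-11 and CPT-11 alone under 4 settings, with filled symbols for an adjusted p under 0.05. CDH1, GRHL2, OVOL1 and ZEB1 are filled under all 4, EPCAM, ESRP1 and ESRP2 are open with only the 2 groups fitted, SNAI2 is open under 2 settings, and SNAI1 is open throughout and lies below 0 after the GC and length correction.

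Against lovastatin with CPT-11, silenced cells showed the same 6 genes higher and the same 2 lower, where 6.84% of all tested genes passed, 2.58% higher and 4.26% lower. Groups did not overlap for 8 of the 9, all but SNAI1, and for 35.5% of all tested genes. CDH1 was 1.75-fold higher (0.74 ± 0.07, adjusted p = 1.3e-04), GRHL2 2.15-fold higher (0.85 ± 0.11, adjusted p = 9.7e-04) and OVOL1 1.97-fold higher (0.76 ± 0.11, adjusted p = 1.8e-03). EPCAM was 1.34-fold higher (0.41, adjusted p = 1.2e-03), ESRP1 1.35-fold higher (0.42, adjusted p = 2.4e-03) and ESRP2 1.28-fold higher (0.33, adjusted p = 0.042). ZEB1 was 3.14-fold lower (-0.80 ± 0.09, adjusted p = 4.5e-04). The size of a difference here does not use the CPT-11 libraries, but all 12 libraries enter the spread behind its SE and p-value. The reference group, lovastatin with CPT-11, had slopes with GC content nearer to those of silenced cells. Both comparisons of silenced cells share the silenced libraries. The SNAI2 difference, -0.35 (adjusted p = 0.044), lost its call under 16 of 20 alternatives, and the ESRP2 call ended under 9 of 21. For ESRP2 these included leaving out any 1 of the lovastatin libraries or of the silenced libraries (adjusted p of 0.0765 to 0.138) or untreated replicate 2 (adjusted p = 0.0621). For SNAI2 they included leaving out any 1 lovastatin or silenced library (adjusted p of 0.0586 to 0.156) and replicate 1 or 2 of the untreated or CPT-11 groups (adjusted p of 0.0504 to 0.0594).

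CPT-11 alone raised SNAI2 and OVOL1 relative to untreated cells. SNAI2 was 8.16-fold higher and OVOL1 1.68-fold higher, and CDH1 was 1.20-fold higher with a call that did not hold. Of the 9 genes tested 3 were higher and none lower, where 16.6% of all tested genes passed in either direction, 8.85% higher and 7.72% lower. Groups did not overlap for the same 3 genes, and for 29.4% of all tested genes. The SNAI2 difference was 0.74 ± 0.09 (adjusted p = 2.9e-04), and its fold rests on the 1 to 10 reads of the untreated libraries. It was 2.29 with a pseudocount of 0.1 FPKM and 3.25 with voom. The OVOL1 difference was 0.46 ± 0.11 (adjusted p = 0.013). Both were called under every alternative run for them. CDH1 differed by 0.23 ± 0.07 (adjusted p = 0.048), and the call ended under 13 of 21 alternatives, among them leaving out any 1 library other than CPT-11 replicate 3 and lovastatin replicate 1 (adjusted p of 0.0564 to 0.162).

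EPCAM (-0.10, adjusted p = 0.28), GRHL2 (-0.02, adjusted p = 0.91), ESRP1 (0.08, adjusted p = 0.46), ESRP2 (0.18, adjusted p = 0.18), ZEB1 (-0.20, adjusted p = 0.18) and SNAI1 (-0.12, adjusted p = 0.33) did not pass for CPT-11 against untreated cells. For each of these 6 the libraries of both groups overlapped. Without CPT-11 replicate 3 the ESRP1 difference was 0.15 and passed (adjusted p = 0.04), and the GRHL2 difference was 0.11 and did not (adjusted p = 0.40). Correcting for GC content and length, ESRP2 passed at 0.15 (adjusted p = 0.031).

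Against CPT-11 alone, lovastatin before CPT-11 gave no call among these genes, and few calls over all genes. No member of the 9 was called, where 0.465% of all tested genes were (84 genes), 0.393% higher and 0.072% lower. The absence of a call among 9 genes is thus near the all-gene share and is not particular to them. With 1 library left out the all-gene count ranged from 41 to 5458. At an unadjusted p under 0.05 there was 1 member, ESRP1, and there were 3686 genes over the whole table, and voom also called no member. The largest differences were -0.17 ± 0.06 for ESRP1 (adjusted p = 0.19) and 0.16 ± 0.08 for SNAI1 (adjusted p = 0.25), which was 0.00 with the GC and length correction. For all 9 genes the libraries of both groups overlapped, while 17.1% of all tested genes did not overlap. CPT-11 replicate 3 decided this result for 2 genes. Without it EPCAM differed by -0.15 (adjusted p = 0.033) and ESRP1 by -0.25 (adjusted p = 3.9e-03). With the GC and length correction applied as well, EPCAM was at -0.10 (adjusted p = 0.11) and ESRP1 at -0.06 (adjusted p = 0.27).

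Against untreated cells, lovastatin with CPT-11 gave 3 members higher and 1 lower, where 29.0% of all tested genes passed, 14.7% higher and 14.3% lower. Groups did not overlap for these 4 and for ZEB1, and for 47.3% of all tested genes. SNAI2 was higher by 0.80 ± 0.09 (log2, adjusted p = 9.2e-05) and OVOL1 1.89-fold higher (0.57 ± 0.11, adjusted p = 2.4e-03). ESRP2 was 1.22-fold higher (0.27, adjusted p = 0.037) and EPCAM 1.15-fold lower (-0.20, adjusted p = 0.021). The ESRP2 call ended under 11 of 21 alternatives, including without any 1 library of the lovastatin group, any 1 silenced library, or untreated replicate 2 or 3 (adjusted p of 0.0509 to 0.132). The EPCAM call ended under 5, including without untreated replicate 1 or 3 or lovastatin replicate 2 or 3 (adjusted p of 0.0549 to 0.0735). ZEB1 was lower by -0.24 without passing (adjusted p = 0.078), although the libraries of both groups did not overlap, and it passed without CPT-11 replicate 3 (adjusted p = 0.0314) and with voom (adjusted p = 0.0471).

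The widest contrast was between silenced cells with CPT-11 and untreated cells, which differ in both the silencing and the drug. 7 members were higher and 1 lower, where 37.8% of all tested genes passed, 18.3% higher and 19.5% lower. Groups did not overlap for these 8, and for 54.1% of all tested genes. OVOL1 was 3.73-fold higher (1.33 ± 0.11, adjusted p = 7.0e-06), CDH1 1.96-fold (0.88 ± 0.07, adjusted p = 7.0e-06), GRHL2 1.96-fold (0.75 ± 0.11, adjusted p = 4.0e-04) and ESRP2 1.56-fold (0.60 ± 0.09, adjusted p = 3.4e-04). SNAI2 was 4.98-fold higher (0.45 ± 0.09, adjusted p = 2.7e-03), ESRP1 1.26-fold (0.32, adjusted p = 2.3e-03) and EPCAM differed by 0.22 (adjusted p = 0.01). ZEB1 was 4.04-fold lower (-1.03 ± 0.09, adjusted p = 1.4e-05). These 8 calls held under every alternative run. SNAI1 differed by 0.01 (adjusted p = 0.93), and its direction turned to -0.25 (adjusted p = 0.079) once GC content and length were corrected for. With this correction and without CPT-11 replicate 3, SNAI1 was called lower at -0.25 (adjusted p = 0.031).

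Ratios of epithelial genes to ZEB1 within each library combine these shifts, and they are given as a description because both parts were already compared. CDH1 over ZEB1 was 2.81 to 3.59 in untreated cells, 4.16 to 5.45 with CPT-11, 4.53 to 4.96 with lovastatin and CPT-11, and 23.5 to 31.4 in silenced cells. GRHL2 over ZEB1 was 1.08 to 1.24, 1.29 to 1.44, 1.26 to 1.42 and 8.12 to 10.5 in the same order. OVOL1 over ZEB1 was 0.568 to 0.608, 1.02 to 1.71, 1.26 to 1.63 and 7.94 to 11.4. In FPKM, ZEB1 was thus above OVOL1 in each untreated library and below it in all others. In CPT-11 replicates 1 and 2 the 2 genes were nearly equal, at ratios of 1.02 and 1.07. EPCAM over CDH1 moved the other way, from 10.3 to 10.8 in untreated cells to 5.79 to 6.88 in silenced cells. It was 8.14 to 8.31 with CPT-11 and 7.58 to 9.01 with lovastatin and CPT-11. From CPT-11 alone to silenced cells CDH1 rose by more than EPCAM. From untreated cells to CPT-11 alone the EPCAM mean went from 72.7 to 68.1 FPKM without passing, and the CDH1 call did not hold. ESRP1 over ESRP2 was 1.99 to 2.55 in untreated cells and 1.82 to 1.86 in silenced cells. This ratio was 1.65 to 2.40 with CPT-11, lowest in replicate 3, and 1.63 to 1.83 with lovastatin and CPT-11.

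**Figure D4:**
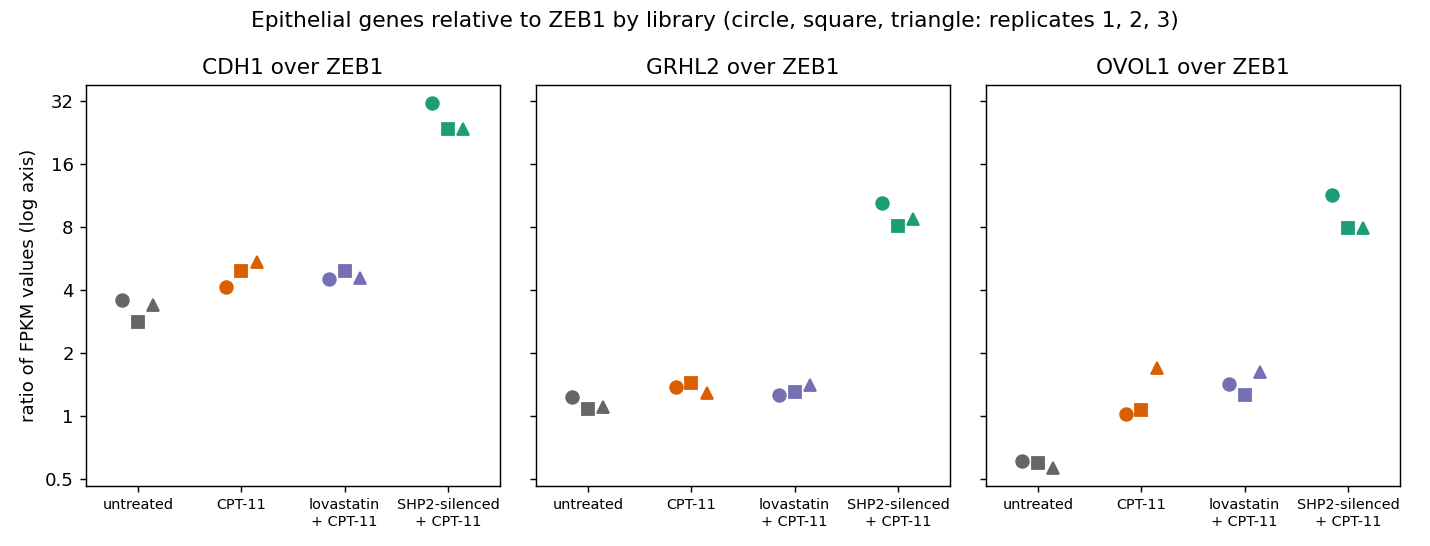
Ratio of the FPKM of CDH1, GRHL2 and OVOL1 to that of ZEB1 in each of the 12 libraries, on a common log axis, with symbols for replicates 1 to 3. The silenced libraries lie at 23.5 to 31.4, 8.12 to 10.5 and 7.94 to 11.4, apart from the other 9 in each panel.

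The genes whose levels most resembled CDH1 over the 12 libraries were PPL (Pearson r of log2 values 0.988), ARRDC4 (0.978) and SLC20A2 (0.956), among 7294 protein-coding genes with a mean of at least 5 FPKM. PPL encodes periplakin, a plakin of epithelial cells, and averaged 11.6 FPKM in untreated and 18.0 FPKM in silenced cells. EPCAM was followed most closely by AKAP1 (0.936), ABCC2 (0.931) and ABHD10 (0.928). ZEB1 was followed by REEP3 (0.986), HOXB9 (0.985) and PFN2 (0.984), and HOXB9 averaged 17.8 FPKM in untreated and 9.54 FPKM in silenced cells. These are descriptions over libraries that fall into 4 groups and share the same differences in depth and GC slope.

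Related genes, in 9 lists chosen for their place around these members, were counted in the same fits. The counts for silenced cells against CPT-11 stand against the 22.0% of all tested genes that passed, 10% higher and 12% lower. Of the 13 adherens junction partners tested, 4 were higher and 3 lower in silenced cells than with CPT-11 alone, with a list median of -0.01. JUP, or plakoglobin, which links cadherins to the cytoskeleton, rose from 76.2 to 104 FPKM (0.44, adjusted p = 3.1e-03) and the P-cadherin gene CDH3 from 29.5 to 37.7 FPKM (0.34, adjusted p = 3.2e-03). VCL, or vinculin, fell from 27.3 FPKM with CPT-11 (-0.43, adjusted p = 2.1e-03) and alpha-catenin CTNNA1 from 49.2 to 38.1 FPKM (-0.36, adjusted p = 6.4e-03). Of the 10 desmosome genes 1 rose and 4 fell. The plakophilin PKP3 went from 17.9 to 36.0 FPKM (1.02, adjusted p = 5.3e-03), while DSG2 went from 65.2 to 44.6 FPKM (-0.53, adjusted p = 4.8e-03) and DSC2 from 6.24 to 4.42 FPKM (-0.41, adjusted p = 0.015). The DSC2 call ended under 4 of 21 alternatives, and those of CTNNA1, PKP3 and DSG2 under 1 each. Junction genes other than CDH1 thus moved in both directions. Among those named, the genes that rose had a GC content of 55.5% to 68.5% and those that fell 38.2% to 48.1%. This order follows the GC slopes of the libraries. The calls of JUP, CDH3 and VCL held under every alternative, the GC and length correction among them. Sizes of the junction gene differences after that correction are not reported here.

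Of the 17 epithelial keratin and surface genes, 8 rose and 1 fell in silenced cells, with a list median of 0.17. MAL2, a protein of apical transport, rose from 26.1 to 55.4 FPKM (1.06, adjusted p = 5.3e-06) and the keratin KRT7 from 0.59 to 1.69 FPKM (0.76, adjusted p = 1.1e-04). The integrin ITGA6 fell from 42.7 to 27.4 FPKM (-0.61, adjusted p = 2.9e-03). Of 13 other epithelial transcription and splicing factors, 3 rose and 3 fell. ELF3 went from 3.93 to 6.25 FPKM (0.56, adjusted p = 4.4e-03). The ETS factor EHF went from 7.38 to 2.71 FPKM (-1.17, adjusted p = 1.0e-05), opposite to the epithelial members of the set. Of 9 other repressors of epithelial genes, 2 rose and 3 fell. SOX4 rose from 21.9 to 34.2 FPKM (0.62, adjusted p = 5.1e-04) and the chromatin protein HMGA2 fell from 14.4 to 10.9 FPKM (-0.37, adjusted p = 5.7e-04).

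Of the 13 mesenchymal genes tested, 1 rose and 5 fell in silenced cells, with a list median of 0.00. VIM, or vimentin, was low in these cells and fell from 1.44 to 0.251 FPKM (-0.96, adjusted p = 7.4e-05). COL1A1 rose from 4.11 to 5.57 FPKM (0.37, adjusted p = 0.035), a call that ended under 10 of 21 alternatives. Of 12 TGF-beta ligands, receptors and SMADs, 2 rose and 3 fell. The inhibitory SMAD7 went from 0.874 to 2.32 FPKM (0.83, adjusted p = 1.5e-03) and the decoy receptor BAMBI from 4.65 to 7.65 FPKM (0.62, adjusted p = 1.4e-03). The receptors TGFBR2 and TGFBR1 went from 9.58 to 6.77 FPKM (-0.44, adjusted p = 5.3e-03) and from 10.7 to 8.26 FPKM (-0.33, adjusted p = 0.016). The TGFBR1 call ended under 5 of 21 alternatives.

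Of 16 corepressors and modifiers used by SNAI and ZEB factors 1 rose and 6 fell, and the list median was -0.21. CTBP2, a corepressor bound by ZEB1, went from 14.0 to 11.8 FPKM (-0.23, adjusted p = 0.019), and AJUBA went from 8.84 to 11.6 FPKM (0.37, adjusted p = 0.034). Their calls ended under 5 and 8 of 21 alternatives. Of 10 genes of EPCAM and E-cadherin cleavage and turnover, 1 rose and 2 fell. Nicastrin, NCSTN, a subunit of the gamma-secretase that cleaves both proteins, went from 25.7 to 19.7 FPKM (-0.36, adjusted p = 5.8e-03), a call lost under 1 of 21 alternatives. Counts of these lists depended on single libraries. With 1 library left out at a time, called genes ranged from 4 to 9 of the adherens list, 2 to 6 of the desmosome list, 7 to 12 of the keratin list, 3 to 9 of the mesenchymal list and 0 to 12 of the corepressor list, where the main counts were 7, 5, 9, 6 and 7. Without CPT-11 replicate 3 alone they were 9, 6, 12, 9 and 12. Over all genes the count with 1 library left out ranged from 1021 to 7850, against 3976 in the main fit. The corepressor count was 0 without CPT-11 replicate 1 or 2 or silenced replicate 1 or 2.

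For CPT-11 against untreated cells, the lists are read against the 16.6% of all tested genes that passed, 8.85% higher and 7.72% lower. Of the 13 adherens junction partners 4 rose and 3 fell, led by NECTIN4, which went from 0.63 to 5.85 FPKM (2.07, adjusted p = 4.2e-08). Of the 10 desmosome genes 3 rose and none fell, with PERP going from 54.3 to 79.9 FPKM (0.55, adjusted p = 2.1e-05). PERP is also a known target of p53, as is MDM2, an E3 ligase of the turnover list, of whose 10 genes 2 rose and none fell. MDM2 went from 20.1 to 60.9 FPKM (1.54, adjusted p = 4.4e-06). Of the 17 keratin and surface genes 5 rose and none fell, and KRT20 went from 0.575 to 1.24 FPKM (0.51, adjusted p = 9.6e-04). Of 13 other epithelial factors 5 rose and 1 fell. GRHL3 went from 0.13 to 0.832 FPKM (0.69, adjusted p = 1.4e-04) and EHF from 4.74 to 7.38 FPKM (0.55, adjusted p = 4.3e-04), while GRHL2 did not pass.

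Mesenchymal genes moved in both directions after CPT-11 alone, with 6 of 13 higher and 2 lower. MMP14 rose from 6.71 to 13.8 FPKM (0.93, adjusted p = 1.2e-04), while VIM fell from 2.43 to 1.44 FPKM (-0.49, adjusted p = 2.0e-03). Of 9 other repressors 1 rose and 4 fell, and HMGA2 went from 21.3 to 14.4 FPKM (-0.53, adjusted p = 1.4e-05). Of 16 corepressor genes 2 rose and 5 fell, and the demethylase KDM1A went from 47.2 to 38.0 FPKM (-0.31, adjusted p = 3.1e-03). None of 12 TGF-beta genes passed, and 2 did with the GC and length correction, under which 4694 of all tested genes passed. Single libraries moved these counts too. They also moved the all-gene count, which was 2991 in the main fit and 1930 to 4418 with 1 library left out. Without CPT-11 replicate 3 the keratin list had 9 genes called instead of 5, the desmosome list 5 instead of 3 and the turnover list 4 instead of 2. Without untreated replicate 2 or 3 the corepressor list had 4 instead of 7. Without CPT-11 replicate 1 the repressor list had 3 instead of 5, and without untreated replicate 1 the TGF-beta list had 1 instead of 0. For lovastatin with CPT-11 against CPT-11 alone, 1 gene of the 9 lists passed, the plakophilin PKP4, which was lower and lost its call under 14 of 21 alternatives. This count rested on CPT-11 replicate 3. Without that library 10 genes each of the adherens, keratin and corepressor lists passed, 6 of the mesenchymal list, 5 each of the desmosome, repressor and turnover lists, 3 of the other epithelial factors and 2 of the TGF-beta list. With the GC and length correction as well, 2 to 5 genes of each list passed, where 2919 of the 18047 genes tested did. Over all genes the count with 1 library left out ranged from 41 to 5458, against 84 in the main fit.

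**Figure D5:**
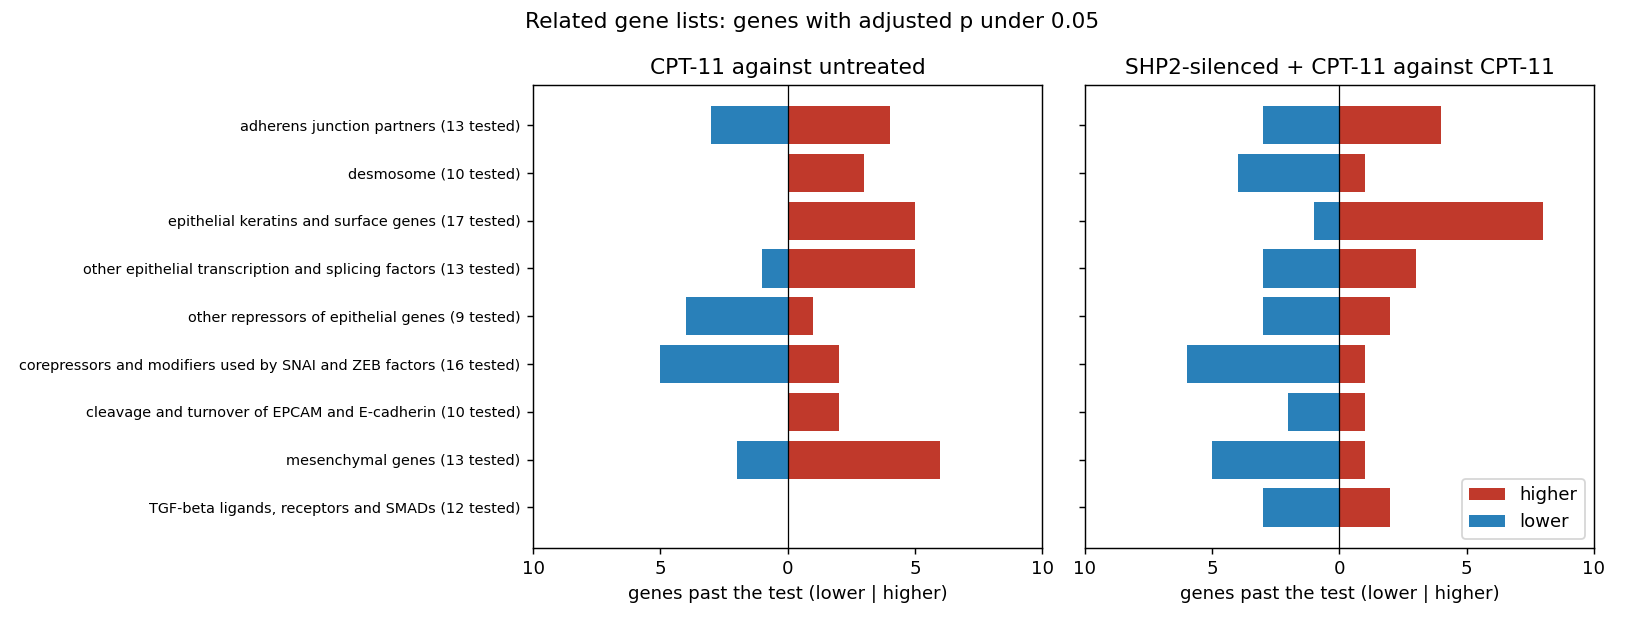
Number of genes with an adjusted p under 0.05 in each of 9 lists, lower to the left and higher to the right of 0, for CPT-11 against untreated cells and for silenced cells with CPT-11 against CPT-11. In the second panel the keratin and surface list has 8 genes higher and 1 lower, and the corepressor list has 1 higher and 6 lower.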

How the data were processed

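The data were 1 deposited table of FPKM values for 59172 features in 12 libraries, made by the authors, for which the submitters' processing notes name the build hg19 and the tools DESeq2 1.16.1, featureCounts 1.5.0-p3, HISAT2 2.0.5 and StringTie 1.3.3b. Start, end and strand of 58724 of 58735 Ensembl features were those of GENCODE 29, so coordinates are given as GRCh38. How counting treated strand and multiply mapped reads is not given in the sources used here.

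Each FPKM value was a whole number of reads within 0.01 read (100% of values). These recovered reads set the filter, at least 10 reads in 3 libraries and 15 in all, which 18047 genes passed. The planned limma fit on log2(FPKM + 1) was used (limma 3.58.1, R 4.3.3): 1 mean per group over all 12 libraries, a variance trend, Benjamini-Hochberg adjustment and a threshold of 0.05, tested on simulated data. The 10 genes and 9 lists were chosen with earlier results of these data known. From each list at most 2 genes per direction with the smallest p were eligible to be named, and likeness to CDH1, EPCAM and ZEB1 was ranked by Pearson r. Alternatives were another pseudocount, filter or scaling, voom, only the compared groups, a replicate block, leaving out each library, and a GC and length correction chosen after the data were seen. MicroRNA and promoter sequences came from RefSeq (GRCh38.p14). Protein sequences were not used here. Some genes that meet the naming rule are not reported here.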

Additional observations from a re-analysis of the deposited data

How the results depend on the processing

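Of the 31 calls among the tested genes in the 6 comparisons, 22 held under every alternative run and 9 were lost under some, and 7 of 23 non-calls passed under some. With only the 2 compared groups fitted, 4 genes of the set were called in silenced cells against CPT-11 instead of 8. Leaving out 1 library gave 2 to 4 genes for CPT-11 against untreated, 0 to 2 for lovastatin against CPT-11, 6 to 8 for silenced against CPT-11, 6 to 8 for silenced against lovastatin, 2 to 5 for lovastatin against untreated and 8 to 8 for silenced against untreated.

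Over all genes the counts were 2991, 84, 3976, 1235, 5230 and 6828 in that order, and leaving out 1 library gave 1930 to 4418, 41 to 5458, 1021 to 7850, 598 to 2455, 3766 to 6779 and 5133 to 8233. With only the 2 compared groups fitted they were 1151 for CPT-11 against untreated, 36 for lovastatin against CPT-11, 451 for silenced against CPT-11 and 2446 for silenced against lovastatin. With the GC and length correction they were 4694, 351 and 2244 for CPT-11 against untreated, lovastatin against CPT-11 and silenced against lovastatin, and without CPT-11 replicate 3 as well they were 4960, 2919 and 2837. Without the filter 1750 genes were called in silenced cells against CPT-11, and voom called 141 for lovastatin against CPT-11. Scaling to library totals moved the split of higher and lower genes from 1598 and 1393 to 1911 and 1005 for CPT-11 against untreated, from 1806 and 2170 to 2364 and 1640 for silenced against CPT-11, from 466 and 769 to 630 and 674 for silenced against lovastatin, from 2648 and 2582 to 3240 and 1954 for lovastatin against untreated, and from 3306 and 3522 to 4332 and 2575 for silenced against untreated. The causes of these shifts were not tested.

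Same-numbered libraries mostly did not share deviations from their group means. Of 18 such pairs, 2 had a correlation of deviations over 0.1, in a range of -0.39 to 0.18. Deviations within a group of 3 libraries sum to 0, so this check cannot exclude that samples were paired. With the replicate block 46 genes were called for lovastatin against CPT-11, 2358 for silenced against CPT-11 and 771 for silenced against lovastatin. Among the calls of the set that the block ended was ESRP1 in silenced cells against CPT-11 (adjusted p = 0.0507). With the added correction and without CPT-11 replicate 3, KLF8 was at 0.028 and RCOR1 at 0.031 in silenced cells against CPT-11, and SNAI1 was at -0.25 and called lower in silenced against untreated cells, where FOXC2 was at -0.089 with the correction, with or without that library. SNAI2 and ZEB2 were limited by depth, at 58 and 10 reads or fewer in a library, and SNAI2 was not tested under the stricter filter of 1 FPKM.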

Other observations

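MIR200CHG, the host transcript of miR-200c and miR-141, was looked up after the seed matches in ZEB1 were counted. It was at 2.57, 2.16 and 3.68 FPKM in untreated cells, 3.35, 4.29 and 2.42 FPKM with CPT-11, 2.80, 3.02 and 3.97 FPKM with lovastatin and CPT-11, and 4.29, 4.40 and 2.83 FPKM in silenced cells. The groups overlapped, and the difference between silenced cells and CPT-11 was 0.16 ± 0.20 (limma, adjusted p = 0.58). OVOL1-AS1, on the opposite strand of OVOL1, had at most 18 reads a library, and its difference in the same comparison was 0.28 ± 0.21 (adjusted p = 0.35).

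RN7SL2, the 7SL RNA of the signal recognition particle, a non-coding RNA without a long poly(A) tail, stood at 1065 to 1469 FPKM in silenced libraries, 227 to 346 FPKM with lovastatin and 71.1 to 155 FPKM in untreated cells. With CPT-11 it was at 37.2, 17.6 and 400.2 FPKM, the highest in replicate 3. Its part in the differences of the 10 genes was not tested.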
